A study of Rattus norvegicus with 6 samples.

Results

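The 9 genes described here encode proteins that neutrophils store in granules or use as signals: the alarmins S100a8 and S100a9, the granule proteins Ngp, Camp, Ltf, Mpo and Elane, the growth factor receptor Csf3r and the citrullinating enzyme Padi4. They were chosen by gene symbol among the 17833 genes of the deposited expression table, and all 9 were found there. The pulmonary veins (PVs) of 3 rats with bilateral banding of these veins (BPVB) were compared, by bulk RNA-seq, with those of 3 rats given a sham operation. All 6 were wild-type Sprague-Dawley (SD) rats, operated on at postnatal day 1, and the PVs of the right upper lobe were taken at postnatal day 21. In BPVB the veins of both lungs were tied over a padding needle that was then withdrawn, which left a fixed narrowing, and the sham operation went through the same steps apart from the banding. Both groups therefore had a thoracotomy under cold anesthesia, and neither was an unoperated control.

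Neutrophils load their granules in the bone marrow, in a fixed order. Azurophil granules come first, with the peroxidase Mpo and the serine protease Elane, then specific granules with lactoferrin (Ltf), the cathelicidin Camp and the related protein Ngp. S100a8 and S100a9 form calprotectin, the most abundant protein pair of the neutrophil cytosol, which binds calcium and metal ions and, once released, acts on Toll-like receptor 4 and on the receptor Ager. Granule messengers are made mostly in the marrow and decline as the cell matures, whereas messengers for S100a8, S100a9 and Csf3r persist in circulating cells. Padi4 citrullinates histones when a neutrophil releases its chromatin as an extracellular trap.

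The upstream sequences of 3 genes that fell together in the comparison are shown because factors of the C/EBP family, which drive granulocyte genes, read a motif with the core TTGCNNAA. RefSeq promoters, in the GRCr8 build, were given for 6 of the 9 genes (S100a9, Ngp, Camp, Ltf, Csf3r and Mpo). Each line below runs 5′ to 3′ along the strand of the gene over the 200 bases before its start. Capitals mark matches to TTGCNNAA on either strand and to TATAAA. S100a9 lies at chr2:178490623-178490822 on the minus strand, Ngp at chr8:119272405-119272604 on the plus strand and Camp at chr8:118721999-118722198 on the minus strand.
S100a9: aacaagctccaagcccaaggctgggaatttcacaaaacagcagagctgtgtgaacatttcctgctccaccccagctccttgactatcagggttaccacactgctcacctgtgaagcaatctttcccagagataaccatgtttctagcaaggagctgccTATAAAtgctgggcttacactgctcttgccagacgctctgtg
Ngp: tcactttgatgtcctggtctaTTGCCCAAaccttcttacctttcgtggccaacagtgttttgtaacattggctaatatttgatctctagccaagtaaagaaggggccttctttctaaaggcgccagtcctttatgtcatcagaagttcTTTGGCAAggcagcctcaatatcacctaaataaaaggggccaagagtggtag
Camp: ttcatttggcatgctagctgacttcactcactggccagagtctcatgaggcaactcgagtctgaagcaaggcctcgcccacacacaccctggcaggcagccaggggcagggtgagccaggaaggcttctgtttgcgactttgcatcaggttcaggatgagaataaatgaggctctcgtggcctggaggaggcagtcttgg

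Ngp held 2 matches to TTGCNNAA, the first starting 179 bases before the start on the plus strand and the other 52 bases before it on the minus strand. Over 250 upstream bases this motif occurred in 9.22% of all 33469 promoters and in 1 of the 6 members. The looser form TTNNGNAA, whose matches include those of TTGCNNAA read on the other strand, occurred in 37.2% of all promoters and in 4 of the 6 members (S100a9, Ngp, Csf3r and Mpo). The ETS-type motifs GAGGAAG and GGAAGT occurred in 10.2% and 19.2% of promoters. The first was found in Csf3r and Mpo, the second in S100a9 and Mpo. TATAAA, found in 12.9% of promoters, was present in S100a9, starting 42 bases before the start. Neither Camp nor Ltf held any of the 5 motifs in this window. These matches describe letters, not binding.

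The recovered library totals were 26078189 to 29725808 fragments in the BPVB group and 23439506 to 23821184 in the sham group. FPKM, the unit of the deposited values, divides a gene's fragments by its length and by the library total. The tissue carried the defining genes of the PV wall, its atrial muscle sleeve and blood. Of 12 PV genes, 10 were lower and 1 higher in the BPVB group. The myosin light chain Myl7 of atrial muscle was 8131 ± 74.2 FPKM in the sham group (SD, n = 3) and 5408 ± 166 in the BPVB group, and the smooth muscle genes Tagln and Acta2 were at 2027 ± 16.8 and 1680 ± 21.4 in the sham group and at 1944 ± 17.6 and 1478 ± 9.53 in the BPVB group. By comparison the 9 neutrophil genes together reached 21.6 to 24.4 FPKM in the sham libraries and 6.73 to 10.4 in the BPVB libraries.

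S100a8 and S100a9, the calprotectin pair, and Ngp and Camp, a pair of specific granule genes, were lower in the PVs of the BPVB group. The sham mean was 2.77 times the BPVB mean for S100a8, 2.55 times for S100a9, 6.11 times for Ngp and 7.09 times for Camp. In each of the 4 genes all 3 BPVB values lay below all 3 sham values. Csf3r and Mpo did not pass the test, and Ltf, Elane and Padi4 were too low to be tested. In bulk tissue, fewer neutrophils and less RNA per neutrophil cannot be told apart.

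Expression was compared on log2(FPKM + 0.5) with limma over the 15150 genes whose FPKM averaged 0.1 or more, two-sided, with Benjamini-Hochberg adjustment over all of them. Of the 9 genes, 6 passed the filter. Of these, 4 were lower in the BPVB group and 0 were higher at an adjusted p of 0.05, and 0 were higher at an unadjusted p of 0.05 or in limma-voom. Among all tested genes, 14.3% were called lower and 17.2% higher. With a log2 fold change below -1 required as well, the same 4 genes were counted, beside 1.03% of all tested genes. The groups failed to overlap, with BPVB below sham, in 20.5% of all tested genes. The median log2 fold change of the 6 tested members was -1.29, beside 0.02 over all tested genes.

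**Figure D1:**
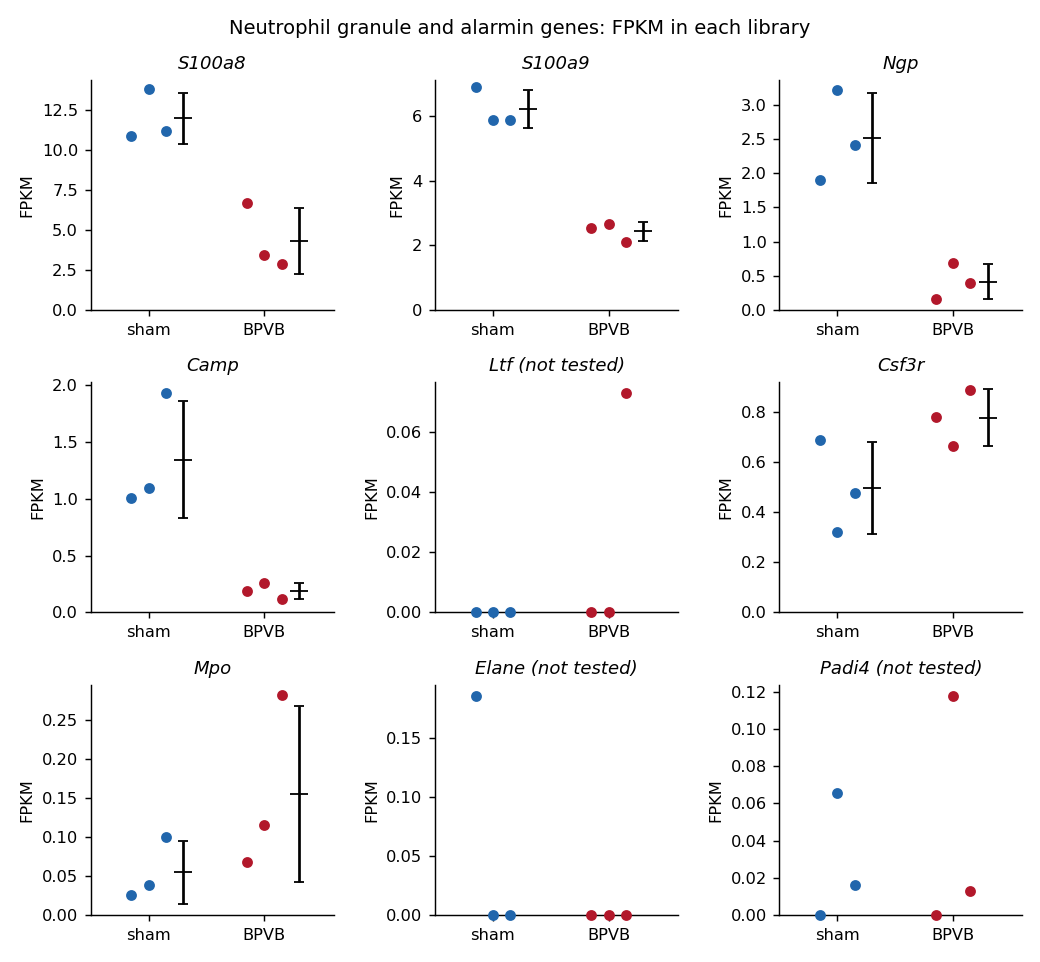
FPKM of the 9 genes in each of the 3 sham (blue) and 3 BPVB (red) libraries, 1 panel per gene, each with its own axis from 0. The bars beside the points of the 6 tested genes give the mean ± SD of the group. For S100a8, S100a9, Ngp and Camp every red point lies below every blue point, and for the other 5 genes the groups overlap.

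The alarmin pair had the highest levels of the 9 genes. S100a8 (NCBI Gene 116547) was at 10.9, 13.8 and 11.2 FPKM in the 3 sham libraries and at 6.68, 3.42 and 2.86 in the 3 BPVB libraries. The BPVB library with the highest value, that of replicate 1, was still below the lowest sham library. The log2 fold change was -1.45 (standard error 0.25, limma, adjusted p = 0.0021).

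S100a9 (NCBI Gene 94195) was at 6.90, 5.88 and 5.88 FPKM in the sham libraries and at 2.53, 2.66 and 2.11 in the BPVB libraries. Its groups lay far apart relative to their spread, and its standard error was the smallest among the 6 tested members. The log2 fold change was -1.20 (standard error 0.11, limma, adjusted p = 6.4e-05). S100a9 also had the most fragments of the 9 genes, 725 over the sham group and 328 over the BPVB group. S100a8 stood at 1.58, 2.35 and 1.91 times the FPKM of S100a9 in the sham libraries and at 2.63, 1.28 and 1.35 times in the BPVB libraries. These ratios overlapped between the groups, with the highest and the lowest of the 6 both in the BPVB group. The pair made up 73.8% to 88.4% of the summed FPKM of the 9 genes in every library.

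Ngp (NCBI Gene 301026), a granule protein of the cathelicidin family, whose messenger is made in developing granulocytes, also fell. Its FPKM was 1.90, 3.21 and 2.42 in the sham libraries and 0.166, 0.679 and 0.387 in the BPVB libraries. The lowest BPVB value rested on 5 fragments and the lowest sham value on 51. The log2 fold change was -1.74 (standard error 0.23, limma, adjusted p = 0.00053). For genes this low the pseudocount of 0.5 makes the fold change smaller, and limma-voom on the recovered fragments gave -2.74.

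Camp (NCBI Gene 316010), the precursor of the antimicrobial peptide cathelicidin, was at 1.00, 1.09 and 1.93 FPKM in the sham libraries and at 0.192, 0.262 and 0.115 in the BPVB libraries. The BPVB values were 3, 4 and 2 fragments, at or near the 3 fragments that a count of 0 would allow, and the sham values were 14, 15 and 27 fragments. The log2 fold change was -1.39 (standard error 0.20, limma, adjusted p = 0.00086), and -2.66 with limma-voom. Taken as fragments per counted fragment of each group, the sham rate was 7.23 times the BPVB rate, with an exact 95% interval of 3.55 to 16.6. The same ratio was 6.14 (4.33 to 8.93) for Ngp. Such intervals cover counting error only, because the fragments of the 3 rats in each group were pooled. They leave out the spread between rats. They also take fragments as separate molecules, which is not known.

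Csf3r (NCBI Gene 298518), the receptor for granulocyte colony-stimulating factor, went the other way in its mean without passing the test. It was at 0.690, 0.323 and 0.476 FPKM in the sham libraries and at 0.780, 0.665 and 0.891 in the BPVB libraries. The sham library of replicate 1 lay above the lowest BPVB library, so the groups overlapped. The log2 fold change was 0.37, with a 95% interval of -0.01 to 0.75 (limma, adjusted p = 0.13). Tested without the filter, Csf3r had an unadjusted p of 0.047 and an adjusted p of 0.13 (limma), and was not called. As a fragment rate, sham stood at 0.634 times BPVB, with an exact 95% interval of 0.499 to 0.803 for counting error only. Log2 ratios to Csf3r were taken after adding the pseudocount of 0.5 to each gene, which makes them smaller in size at such low levels. For S100a9 the log2 ratio was 2.77 ± 0.17 in the sham group and 1.20 ± 0.27 in the BPVB group (SD, n = 3 each). For Ngp it was 1.59 ± 0.58 and -0.52 ± 0.49. Neither ratio overlapped between the groups. For both, p = 0.1 in an exact two-sided permutation test, before and after adjustment over these 2 ratios, which is the smallest p that 3 rats against 3 allow.

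Mpo (NCBI Gene 303413), myeloperoxidase of azurophil granules, was at 0.0252, 0.0384 and 0.101 FPKM in the sham libraries and at 0.0675, 0.115 and 0.283 in the BPVB libraries. These were 2, 3 and 8 fragments and 6, 10 and 28 fragments. The highest BPVB library held most of the group's fragments, and the groups overlapped. Mpo passed the filter by a mean of 0.105 FPKM that it owed to the BPVB group, and without BPVB replicate 3 it was not tested. Its log2 fold change was 0.23, with a 95% interval of -0.16 to 0.61 (limma, adjusted p = 0.35). Limma-voom gave 1.39 (standard error 0.94, adjusted p = 0.27), outside that interval and also not called. As a fragment rate, sham stood at 0.343 times BPVB, with an exact 95% interval of 0.17 to 0.649 for counting error only.

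The 3 genes below the filter gave a handful of fragments. Ltf (NCBI Gene 301034), lactoferrin, was listed at 0 in all 3 sham libraries and in BPVB replicates 1 and 2, and at 0.0731 FPKM, or at least 6 fragments, in BPVB replicate 3. A count of 0 for Ltf allowed up to 0.0366 to 0.0464 FPKM, depending on the library. Elane (NCBI Gene 299606), neutrophil elastase, was listed at 0 in all 3 BPVB libraries and in sham replicates 2 and 3, and at 0.186 FPKM, or at least 2 fragments, in sham replicate 1. For Elane a count of 0 allowed up to 0.223 to 0.283 FPKM, more than the only value seen. Padi4 (NCBI Gene 29512) was at 0, 0.0656 and 0.0161 FPKM in the sham libraries and at 0, 0.118 and 0.0129 in the BPVB libraries, with 5 fragments in the sham group and 9 in the BPVB group. A difference in these 3 genes was not detectable at this depth. Tested without the filter, their log2 fold changes were 0.07 for Ltf, -0.15 for Elane and 0.04 for Padi4, and none was called (limma, adjusted p = 0.56, 0.45 and 0.82).

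FPKM is per length, so levels can be set in order, on the gene lengths the authors used. The lengths recovered with the fragments were 247 bases for S100a8 and 1641 for S100a9. By fragments alone S100a9 stood at 2.52 to 5.18 times S100a8 in the 6 libraries, so the order of the pair and the ratios between them rest on these lengths. In the sham group the order was S100a8, S100a9, Ngp, Camp and Csf3r, followed by Mpo, Elane, Padi4 and Ltf, which lay too close to 0 to be ranked among themselves. Neighbours in this order down to Csf3r did not overlap over the 3 libraries except Ngp and Camp. In the BPVB group Csf3r came directly after S100a8 and S100a9, ahead of Ngp, Camp and Mpo. There, Csf3r and Ngp overlapped, as did Ngp and Camp, and Camp and Mpo.

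The other genes of the neutrophil program, taken from lists of textbook markers that leave out the 9, moved in both directions. Of 6 tested azurophil granule genes, 2 were higher, 2 lower and 2 not called, with a median log2 fold change of 0.16. The proteoglycan serglycin (Srgn), which packs granule contents, fell from 102 ± 6.48 to 85.1 ± 6.47 FPKM, and Ctsc, the protease that activates Elane and its relatives, from 21.5 ± 0.335 to 18.6 ± 0.462. Cd63, a membrane protein of lysosomes and azurophil granules, rose from 220 ± 9.39 to 244 ± 5.39, and Serpinb1a, an inhibitor of neutrophil serine proteases, from 2.24 ± 0.568 to 5.77 ± 0.385. Srgn, Ctsc and Cd63 are made by many cell types. The 2 genes not called were the defensin genes Np4 and RatNP-3b, with log2 fold changes of 0.39 and 0.18. Np4 had 5 fragments in the sham group and 16 in the BPVB group, and RatNP-3b had 9 and 13. The azurophil genes Ctsg, Prtn3 and Bpi had at most 3 fragments each in all 6 libraries together.

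Of 15 genes of specific and gelatinase granules, 6 were higher, 1 was lower and 8 were not called, with a median log2 fold change of 0.32. The gene that fell was Mmp8, neutrophil collagenase, which was named after its value was seen. It had 122 fragments over the sham group and 26 over the BPVB group, with means of 1.23 ± 0.243 and 0.224 ± 0.173 FPKM (SD, n = 3 each) and no overlap (log2 fold change -1.27, standard error 0.20, limma, adjusted p = 0.0014). Slpi, an inhibitor of elastase that airway epithelium also secretes, had a log2 fold change of 1.45, the ficolin Fcnb of 1.39 and Chi3l1 of 1.29. Lcn2, the iron-siderophore binding lipocalin, was at 24.3 ± 1.87 FPKM in the sham group and 24.1 ± 1.47 in the BPVB group, and was not called (log2 fold change -0.01).

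Of 16 tested genes of the neutrophil surface, 10 were higher, 0 were lower and 6 were not called. None of the 16 was lower at an unadjusted p of 0.05 either. The Fc receptor Fcgr3a had a log2 fold change of 1.62, the integrin chains Itgb2 and Itgal of 1.17 and 0.85. Fcgr3a, Itgb2 and Itgal also belong to macrophages, monocytes or lymphocytes. The chemokine receptors Cxcr1 and Cxcr2 were named after their values were seen. Cxcr1 was higher, with means of 0.0831 ± 0.0781 FPKM in the sham group and 0.495 ± 0.194 in the BPVB group, from 8 and 56 fragments and without overlap (log2 fold change 0.76, standard error 0.19, limma, adjusted p = 0.015), but it passed the filter on low values only through the BPVB group. Cxcr2, the main chemokine receptor of mature neutrophils, was not called, with means of 0.309 FPKM in the sham group and 0.205 in the BPVB group, from 29 and 22 fragments. Of the 6 NADPH oxidase genes, 5 were higher and 1 was lower. The catalytic subunit Cybb rose from 4.22 ± 0.698 to 8.62 ± 1.29 FPKM, whereas the cytosolic subunit Ncf1 fell from 11.7 ± 1.06 to 8.54 ± 0.378.

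**Figure D2:**
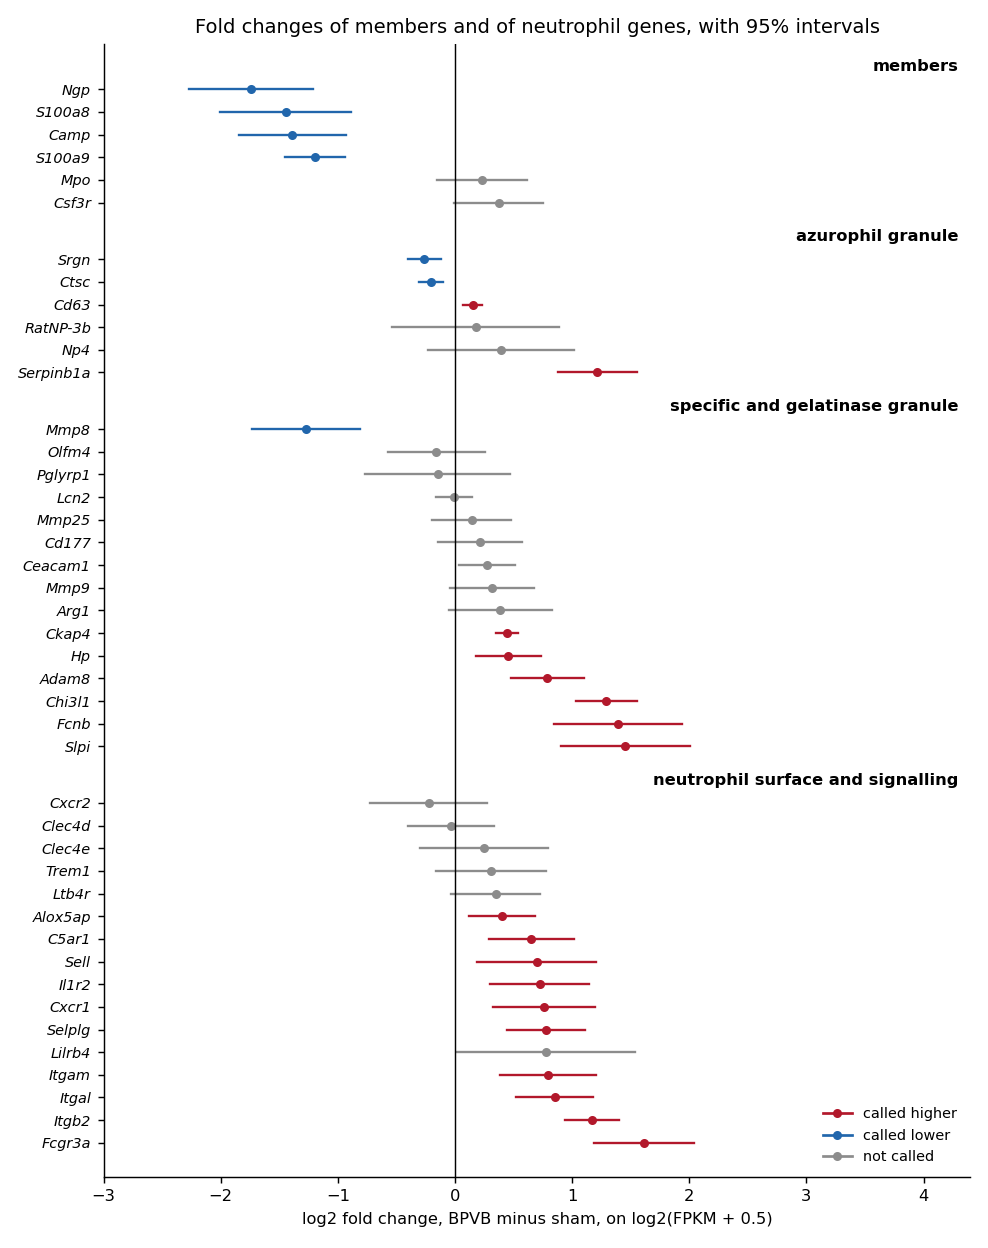
Log2 fold change of BPVB minus sham on log2(FPKM + 0.5), as points with 95% intervals from limma, for the 6 tested members and the tested genes of 3 neutrophil lists. Blue is called lower, red called higher and grey not called. Among the other lists Mmp8, at -1.27, is the gene that lies within the range of the 4 members that fell.

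Transcription factors and growth factor receptors of granulopoiesis made up a further list. Of its 10 tested genes, 8 were higher and 0 lower (limma), with 9 higher and 0 lower at an unadjusted p of 0.05. The gene added at the unadjusted p was Csf2, with 4, 9 and 0 fragments in the BPVB libraries and 0 in each sham library. Csf2 passed the filter only through the BPVB group. Cebpa rose from 2.09 ± 0.411 to 5.77 ± 0.320 FPKM, Cebpb from 20.7 ± 2.25 to 37.2 ± 2.60 and Cebpd from 27.1 ± 3.02 to 47.9 ± 3.95. Csf2rb, the common beta chain of the receptors for GM-CSF, interleukin 3 and interleukin 5, rose from 6.46 ± 0.652 to 16.7 ± 2.0. These 4 genes are also expressed by macrophages or epithelium, whose lists rose in the same comparison, and the part of those cells was not tested. The factors most restricted to granulocytes, named after their values were seen, were scarce. Cebpe had 7, 0 and 0 fragments in the sham libraries and 0, 1 and 12 in the BPVB libraries and was not called, and Gfi1 was too low to be tested, with 3 fragments in the sham group and 9 in the BPVB group. Of 10 tested neutrophil chemoattractants and adhesion genes, 5 were higher and 0 lower (limma), with 1 lower at an unadjusted p of 0.05. The chemokine Cxcl3 rose from 0.612 ± 0.299 to 7.77 ± 0.401 FPKM (log2 fold change 2.93, standard error 0.19, limma, adjusted p = 7.7e-06), and the endothelial adhesion molecule Vcam1 from 32.6 ± 2.38 to 49.99 ± 1.04. The other 3 calls were the complement component C3 and the adhesion molecules Selp and Icam1, with log2 fold changes of 1.06, 0.79 and 0.17. The other tested chemokines, Cxcl1, Cxcl2 and Ppbp, were not called, at -0.30, 0.30 and -0.14, nor was the cytokine Il1b, at -0.28, which was the gene lower at an unadjusted p. The adhesion molecule Sele was not called either, at 0.13. Of 3 tested genes of extracellular traps, Gsdmd was higher (log2 fold change 0.36) and Padi2 and Hdac1 were not called.

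Of the 8 other S100 genes tested in the list of alarmins and their receptors, 4 were higher, 1 was lower and 3 were not called. Of all 15 tested genes of this list, 7 were higher, 2 lower and 6 not called. S100a6 rose from 164 ± 11.7 to 289 ± 20.1 FPKM and S100a11 from 260 ± 5.42 to 319 ± 5.71, S100a4 and S100b had log2 fold changes of 0.48 and 0.78, and S100a10 was at 352 ± 8.19 and 357 ± 9.65 without a call. The 2 genes that were lower were Il33 and S100a1, with log2 fold changes of -0.31 and -0.11. Among receptors for S100a8 and S100a9, Ager rose from 9.45 ± 0.450 to 57.6 ± 3.77 FPKM and Cd36, which takes up fatty acids and binds the pair, from 9.35 ± 0.523 to 21.7 ± 7.55. Toll-like receptor 4 (Tlr4), named after its value was seen, was at 4.44 ± 0.400 FPKM in the sham group and 3.94 ± 0.279 in the BPVB group and was not called (log2 fold change -0.15, limma, adjusted p = 0.28). Ager is also a defining gene of alveolar type 1 cells.

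**Figure D3:**
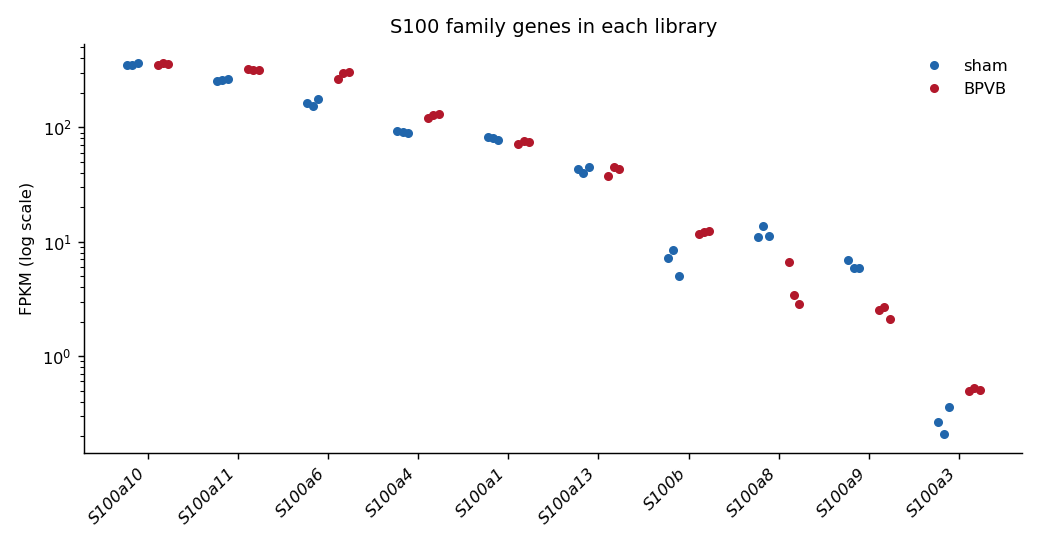
FPKM of the 10 tested S100 genes among the members and the alarmin list, on a log axis, in order of mean level. Points are the 3 sham (blue) and 3 BPVB (red) libraries. S100a8 and S100a9 lie well below S100a10, S100a11 and S100a6, and their BPVB points lie below their sham points.

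Markers of other cells moved in the same comparison. All 8 tested genes of alveolar and airway epithelium were higher, and their list had a summed FPKM of 56.8 to 58.6 in the sham libraries and of 546 to 591 in the BPVB libraries. Of 11 macrophage genes, 9 were higher, with sums of 273 to 280 and 753 to 768. Most of both sums was Lyz2, lysozyme, which alveolar type 2 cells also make, and without it they were 109 to 120 and 165 to 178. Of 9 monocyte genes, 4 were higher and 2 (Nr4a1 and Vcan) lower, with sums of 280 to 285 and 317 to 335. Without Fn1, fibronectin, which cells of the vessel wall also make, these sums were 161 to 168 and 149 to 164 and overlapped. Ccr2 and Cx3cr1, receptors of the classical and patrolling monocyte classes, had log2 fold changes of 1.11 and 1.16. All 5 proliferation genes were higher, with sums of 9.88 to 12.6 and 31.3 to 32.1. Of 10 lymphocyte genes, Cd4, which monocytes and macrophages of the rat also carry, was called (log2 fold change 0.72), and the sums were 10.2 to 10.9 and 13.03 to 14.6. Without Cd4 they were 5.27 to 5.91 and 5.04 to 5.83 and overlapped.

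Neutrophils also arrive with the blood left in the vein. Of 11 erythroid and platelet genes, 4 were lower and 0 higher (limma), with 0 higher at an unadjusted p of 0.05, with a median log2 fold change of -0.25. Among them were Itga2b, Hba-a3 and Alas2, at -0.55, -0.42 and -0.14. Hba-a1 and Hbb, the most abundant alpha and beta globin genes, were not called, with log2 fold changes of -0.25 and -0.12. Globin genes have near-identical copies among which the counting could have split reads. The summed FPKM of the list was 16056 to 19769 in the sham libraries and 13149 to 16898 in the BPVB libraries, and overlapped between the groups. The part of blood, epithelium and macrophages in the fall of the 4 neutrophil genes was not tested.

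**Figure D4:**
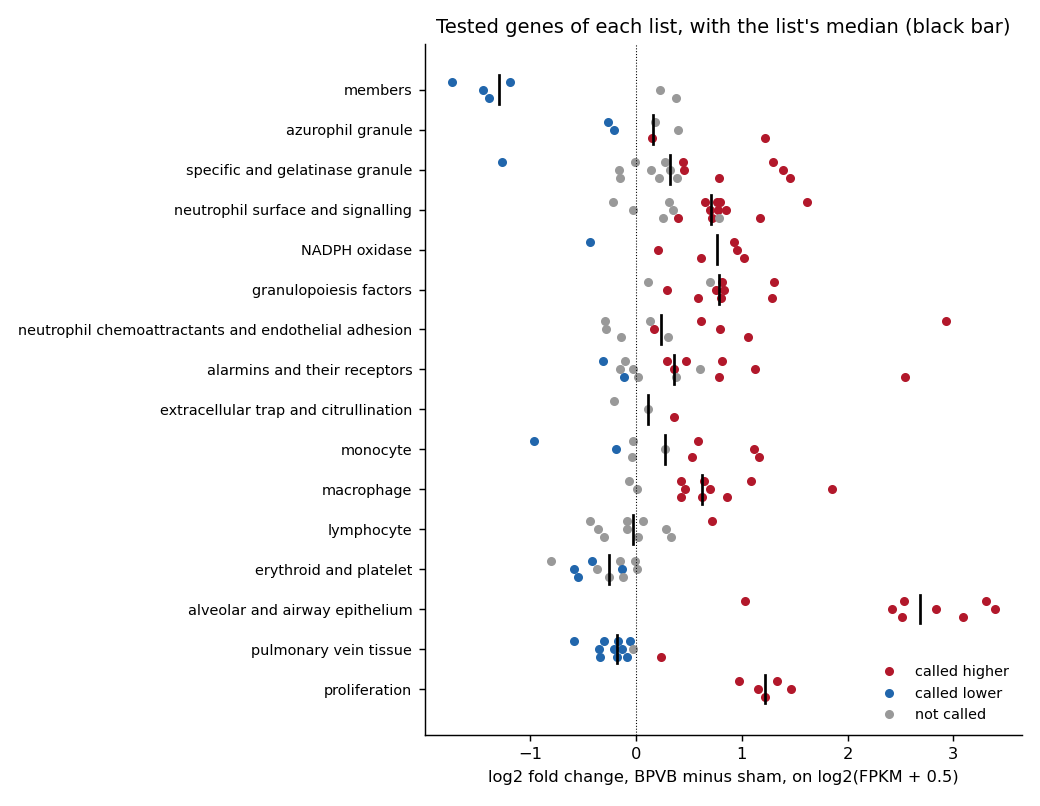
Log2 fold change of BPVB minus sham for each tested gene of the 9 neutrophil genes (top row) and of 15 marker lists, with the median of each list as a black bar. Blue is called lower, red called higher and grey not called. The median of the members is -1.29, and the medians of the 4 neutrophil lists below them lie between 0.16 and 0.77.

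In the gene order of GRCr8, S100a8 and S100a9 are direct neighbours, while Camp, Ngp and Ltf lie on the same chromosome with other genes between them. The coding genes next to the members were examined after the members' values were seen. Ptpn23 and Klhl18, on either side of Ngp, had log2 fold changes of 0.45 (called higher) and 0.05 (not called). Nme6 and Cdc25a, beside Camp, had 0.01 and 0.28, and neither was called. Cfd, which encodes complement factor D and lies beside Elane, rose from 6.98 ± 0.778 to 25.4 ± 2.79 FPKM. Mrps15, a mitochondrial ribosomal protein gene beside Csf3r, fell from 45.9 ± 1.20 to 31.96 ± 1.10 FPKM (log2 fold change -0.52, limma, adjusted p = 3.0e-05).

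Over the 6 libraries, the genes averaging 1 FPKM or more that followed S100a8 most closely on log2(FPKM + 0.5) were Fryl, Aimp2, Actg1, Tpm4 and Mrpl1, with Pearson's r between 0.989 and 0.998. For Ngp they were Snap91, Etfb, Get4, LOC679739 and Snx3, with r between 0.992 and 0.997. These correlations are a description over 6 libraries that share the split into 2 groups, and the 10 genes had log2 fold changes from -0.54 to -0.12, smaller in size than those of the 4 members that fell.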

How the data were processed

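PV RNA was measured by bulk RNA-seq in 3 BPVB and 3 sham rats, and groups and replicate numbers were taken from the sample labels. The authors used fastp for trimming 150 bp paired-end reads, HISAT for mapping and HTSeq-count for counting, and deposited an FPKM value for each gene in each rat. The submitters' processing notes instead list HISAT2 2.0.5, StringTie 1.3.3b, featureCounts 1.5.0-p3 and DESeq2 1.20.0. The kit is VAHTS Universal V6 in the methods and NEBNext Ultra in the labels. The genome build and the strand setting are not given in the sources used here. The table's columns were all mapped to samples, and 0 with per-sample values went unused.

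The fragments of each gene were worked out from ratios between its FPKM in different libraries, and came out whole for 100% of 17833 genes (tolerance of a ratio 1e-05). In simulation, 97.6% of 6000 genes were recovered with all counts right. They are the smallest numbers that the values allow.

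FPKM were compared with limma 3.58.1 in R 4.3.3 (lmFit, eBayes with a trend) on log2(FPKM + 0.5), over genes whose FPKM averaged 0.1 or more, two-sided, with Benjamini-Hochberg adjustment over all 15150 tested genes. A gene was called at an adjusted p under 0.05. The second rule also asked, as the study did, for a log2 fold change beyond 1 in either direction. DESeq2 was not run, since the file holds no counts. Tested on simulated data, 178 of 200 genes changed 4-fold among 15150 were called, 0 with the wrong sign, and 6 unchanged genes were called. Of the 152 changed genes with a mean FPKM of 1 or more, 150 were called, so most misses lay below that level. Camp, Csf3r and Mpo average less than 1 FPKM. The other steps used scipy 1.17.1, numpy 2.4.6, matplotlib 3.10.9 and pandas 2.3.3 in Python 3.11.15.

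The 9 members and the 15 lists were chosen with earlier results of these data known. Named are the 9 members, the 3 genes of highest mean FPKM and the 2 of largest called change in each list (or some of these), small counts by name (some list genes are not reported by name here), the 5 genes most like S100a8 and like Ngp, and neighbours. Alternatives were pseudocounts of 1 and 0.1, no filter, a mean FPKM of at least 1, median-of-ratios, TPM and quantile scaling, the replicate block, robust eBayes, limma-voom (at least 10 fragments in all libraries together), the second rule, and leaving out each library. The labels number the rats 1 to 3 in both groups, and nothing says that equal numbers share a litter, so the samples were not paired. The labels do not say that the rats of a group come from separate litters, so p-values measure the spread between these rats.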

Additional observations from a re-analysis of the deposited data

How the results depend on the processing

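Under all 17 alternatives 0 of the 9 genes were higher. 4 were lower under every alternative but one, the filter at a mean FPKM of at least 1, where 3 were lower because Camp was not tested. S100a8, S100a9, Ngp and Camp stayed below zero and called wherever they were tested, and Csf3r and Mpo stayed above zero and not called. Leaving out each library in turn gave 4 lower genes each time, with log2 fold changes of -1.77 to -1.23 for S100a8, -1.25 to -1.11 for S100a9, -1.95 to -1.53 for Ngp and -1.52 to -1.17 for Camp. Over the other alternatives the range was -1.56 to -1.35 for S100a8, -1.36 to -1.07 for S100a9, -2.74 to -1.31 for Ngp and -2.66 to -0.96 for Camp, the lowest from limma-voom and the highest from a pseudocount of 1 for Ngp and Camp. The same range was 0.25 to 0.70 for Csf3r and 0.13 to 1.39 for Mpo, each lowest with a pseudocount of 1 and highest with limma-voom. With the replicate block 4 genes were lower and 0 higher. The deviations of same-numbered rats correlated at 0.0255, 0.0136 and 0.0153, each rat best with its own number, which is a hint from the data and not the design, and the block changed calls over all genes from 4775 to 4539. The scalings moved the median log2 fold change of all genes by less than 0.1. Depth limits Ltf, Elane, Padi4, Mpo and the BPVB values of Camp, where a few fragments set the value.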
